A study of Mus musculus with 3 samples.

Results

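DNA methylation along 6 genes of the spermatogonial stem cell was measured in sperm of mice treated with doxorubicin (DXR), an anthracycline that poisons topoisomerase II. The genes were Kit, Gfra1, Ret, Zbtb16, Foxo1 and Sall4. Analysed were all 500 bp windows that carry one of these gene symbols in the deposited methylation report, each window taken once. They numbered 109 of 143198 windows, and the 6 genes stood among 15181 gene symbols. Sperm came from the cauda epididymis of C57BL/6 mice labelled as 14 weeks old. The 3 groups were a vehicle control given saline, low dose DXR at 0.02 mg/kg, and high dose DXR at 0.2 mg/kg, called control, low dose and high dose sperm. Injections were intraperitoneal, 2 per week over 5 weeks between 8 and 13 weeks of age, and sperm was taken 4 days after the last one. Each group was 1 library, and the sources used here do not say how many animals it pooled. With 1 library per group there was no replicate, no test and no p-value, so a difference can be stated only for these libraries.

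Methylated fragments were captured with the methyl-CpG-binding protein MBD2 and sequenced, and dense reads mark stretches rich in methylated CpG. The authors gave each window a read density (RPM) and a methylation score called RMS. Every window of the table had RMS above 1 in at least 1 library. Sequence that was low in all 3 libraries is therefore outside the table and was not analysed here. A window that passed RMS 1 in some libraries only had to be lower in the others, so its direction is partly set by how it entered the table. A change is log2((treated RMS + c)/(control RMS + c)), with c = 0.766, and a window was called lower or higher where that change reached 1 in size, or 2-fold. In DNA from many sperm, fewer methylated molecules and poorer recovery of the same molecules cannot be told apart.

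Spermatogonial stem cells sit at the base of the seminiferous epithelium and either renew themselves or enter differentiation. Sertoli cells secrete GDNF, which binds the co-receptor GFRA1 and signals through the receptor tyrosine kinase RET to sustain self-renewal. ZBTB16 (PLZF), a BTB zinc finger repressor, FOXO1, a forkhead factor, and SALL4, a C2H2 zinc finger factor, maintain the undifferentiated state, while KIT, the receptor tyrosine kinase for KIT ligand, is needed by differentiating spermatogonia. Sperm no longer divides and is nearly silent in transcription. What it carries of these genes is their DNA, methylated over most of the genome and unmethylated at most CpG-dense promoters.

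No window of the 6 genes lay within 3 kb of the RefSeq start of its gene. The RefSeq promoter table (GRCm38.p6, the assembly named mm10 in the submitters' notes) held 3 of the 6 genes, Kit, Gfra1 and Foxo1. Over 300 bases around the start given there, Foxo1 had 31 CpG, Kit had 20 and Gfra1 had 12, and a listed window overlapped 0 of these 3 promoters. For Gfra1, on the minus strand, the 250 bases before that start end at 58455648, inside the RefSeq range of the gene, which ends at 58455946. The Gfra1 count thus belongs to another start than the one used for distances. Among all promoters of that table with 20 or more CpG, 0.299% overlapped a listed window, against 10.4% of those with 5 to 9 CpG. The 250 bases before the start of Kit and of Foxo1 are shown for their density of CpG, with each CpG in capitals, in a stretch with no listed signal in any of the 3 libraries. The Kit stretch is chr5:75574737-75574986 and the Foxo1 stretch is chr3:52268087-52268336, both on the plus strand and written 5′ to 3′.
Kit: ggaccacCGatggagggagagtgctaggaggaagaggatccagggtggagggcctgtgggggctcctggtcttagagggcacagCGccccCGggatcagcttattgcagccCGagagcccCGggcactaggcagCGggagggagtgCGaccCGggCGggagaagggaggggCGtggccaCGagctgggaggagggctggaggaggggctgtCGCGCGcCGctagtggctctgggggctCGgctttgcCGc
Foxo1: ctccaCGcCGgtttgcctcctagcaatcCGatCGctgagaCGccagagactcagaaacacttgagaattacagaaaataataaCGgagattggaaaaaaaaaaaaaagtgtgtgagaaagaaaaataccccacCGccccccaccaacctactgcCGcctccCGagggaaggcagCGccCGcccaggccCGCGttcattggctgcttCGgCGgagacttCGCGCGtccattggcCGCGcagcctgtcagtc
These stretches held 17 CpG in Kit and 20 in Foxo1, and 10.6% of all promoters in the table had as many CpG as Foxo1 over the full 300 bases.

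The listed windows lay in the bodies of the genes, 40 of them exonic, 68 intronic and 1 in the downstream flank. Sall4 was the most densely listed, with 12 of the 39 tiles of 500 bp in its RefSeq range, or 30.8%. Kit followed with 34 of 165 tiles (20.6%), then Ret with 10 of 93 (10.8%), Zbtb16 with 29 of 370 (7.84%), Gfra1 with 18 of 441 (4.08%) and Foxo1 with 5 of 165 (3.03%). The median over 12099 protein-coding genes of 30 or more tiles was 2.74%, and 99.4% of them were no more densely listed than Sall4. All 6 genes thus had at least the median density of listed windows, and Kit, at the 97.1 percentile, followed Sall4. Among the 109 windows the median RMS was 1.80 in control sperm, 1.45 in low dose sperm and 1.29 in high dose sperm. The median over all windows of the table was 1.80, 1.67 and 1.57 in these libraries.

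**Figure D1:**
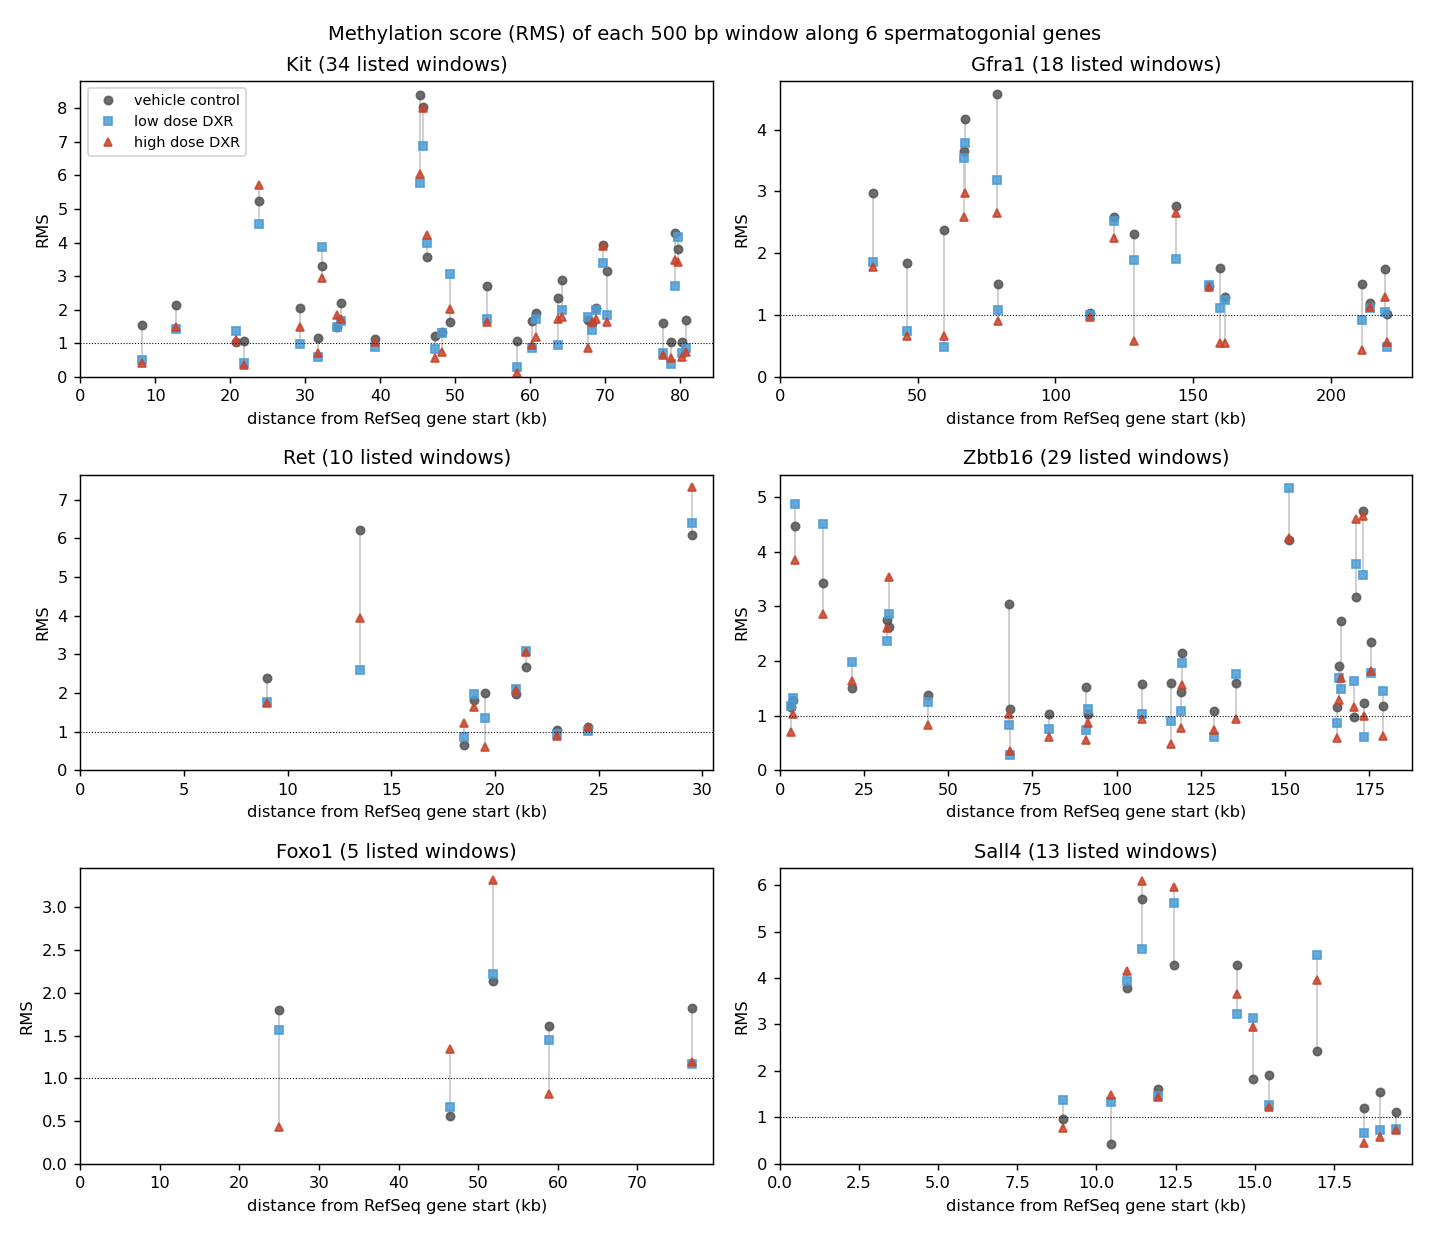
RMS (vertical axis, methylation score) of every listed 500 bp window against its distance from the RefSeq gene start in kb, in 1 panel per gene; circles are the control library, squares the low dose library and triangles the high dose library, with a grey line joining the 3 values of a window and a dotted line at RMS 1. Signal was strongest about 45 kb into Kit (RMS 8.40 in the control library). In Gfra1 the high dose triangle is below the control circle in all 18 windows, as was required of those under RMS 1 at the high dose.

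Set against the control library, the high dose library was the lower one in 85 of the 109 windows (78.0%). The share was 60.8% among all windows and 64.0% among gene-annotated windows. Past the limit were 6 windows that were lower and 0 that were higher. These 6 are 5.50% of the members, while 2.52% of all windows and 2.85% of gene-annotated windows were lower; 0.0824% of all and 0.0804% of gene-annotated windows were higher. The 6 windows lay in 5 genes, 2 in Gfra1 and 1 each in Kit, Ret, Zbtb16 and Foxo1. The median change of the members was -0.33, against -0.10 over all windows and -0.14 over gene-annotated windows. Gfra1 had the lowest median (-0.43), followed by Foxo1 (-0.40), Kit (-0.36), Zbtb16 (-0.33), Sall4 (-0.11) and Ret (-0.05). The medians of Ret and Sall4 changed sign under other scalings, as given with each gene. A lower window at the high dose was more frequent in genes with more windows: of 607 genes with 20 to 40 windows, 51.9% had at least 1, as did 28.6% of 1512 genes with 10 to 19 windows and 15.5% of 2847 genes with 5 to 9.

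At the low dose, 76 of the 109 windows (69.7%) were below control, against 56.7% of all windows and 59.2% of gene-annotated windows. Past the limit were 3 lower windows, 1 each in Gfra1, Ret and Zbtb16, and 0 higher ones. They make up 2.75% of the members, where 1.24% of all windows were lower and 0.12% higher, with 1.39% and 0.123% among gene-annotated windows. The median change was -0.20 for the members, -0.05 for all windows and -0.08 for gene-annotated windows. By gene it was -0.35 for Gfra1, -0.30 for Kit, -0.12 for Zbtb16, -0.10 for Foxo1, -0.09 for Sall4 and -0.01 for Ret. The low dose medians of the last 4 genes turned positive under at least 1 of the 3 scalings tried, and those of Gfra1 and Kit did not. Both comparisons use the same control library, so a control value that is high by itself lowers both changes.

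Between the doses, 0 member windows passed the limit in high dose sperm against low dose sperm, where 0.33% of all windows were lower and 0.0293% higher, with 0.357% and 0.0268% among gene-annotated windows. The median difference was -0.05 in the members and -0.04 over all windows, and the high dose library was the lower one in 66 of 109 windows. RMS followed the order of dose downward (control, low, high) in 44 windows and upward in 11. These are 40.4% and 10.1% of the members, against 27.9% and 14.99% of all windows. Where every library had RMS above 1, the shares were 25.9% and 13.8% of the 58 members left, against 21.0% and 19.2% of all such windows. In 32 windows (29.4%) the low dose library was the lowest of the 3, close to the 28.8% of all windows.

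**Figure D2:**
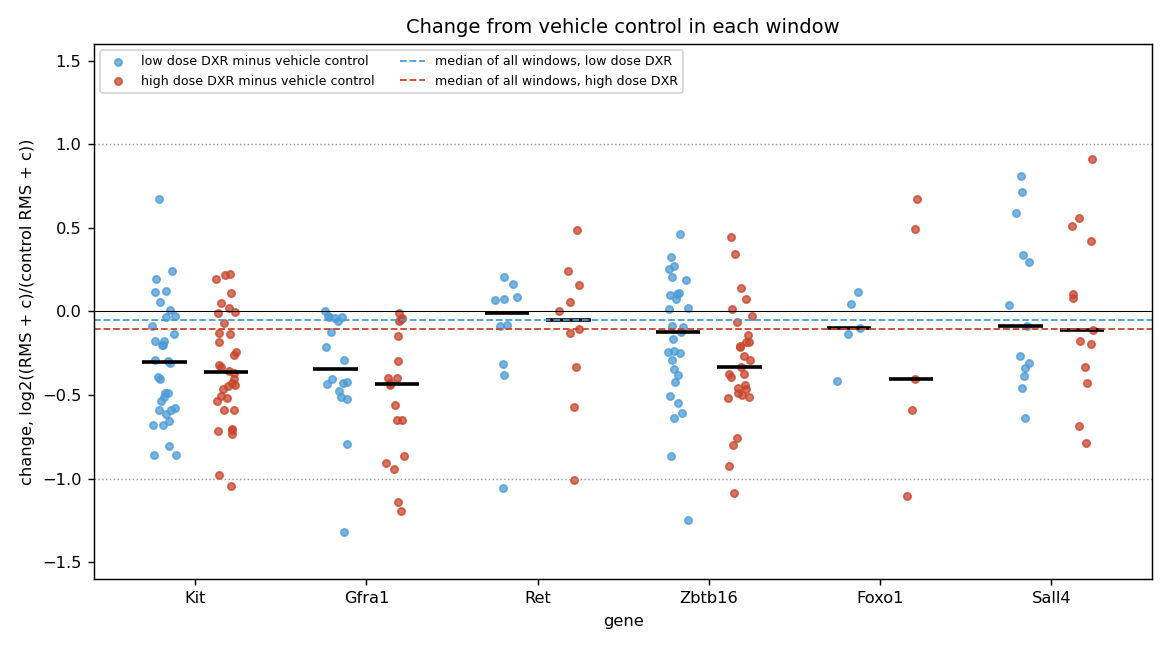
Change of RMS from the control library (vertical axis, log2 with c = 0.766) for each window of the 6 genes, with the low dose on the left and the high dose on the right of each gene; black bars are medians over windows, dashed lines the medians of all 143198 windows and dotted lines the limit of 1. Gfra1 has 0 points above zero at the high dose, partly required by how its windows entered the table, whereas Ret and Sall4 are spread on both sides.

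Gfra1, which encodes the GDNF co-receptor, had the lowest median of the 6 genes at the high dose. At the low dose the order of Gfra1 and Kit turned with the setting, at -0.23 for Gfra1 and -0.26 for Kit after quantile normalization. Its 18 windows (ENSMUSG00000025089, chromosome 19, minus strand) ran from 33.7 to 220 kb after the start. In the high dose library all 18 were below control, and in the low dose library 17 were. Of the 18, 5 were in the table through the control library alone and 4 through control and low dose sperm only. A high dose value below control was required in these windows. Its mean RMS per window was 2.21 in control sperm, 1.63 in low dose sperm and 1.37 in high dose sperm, over 9 kb of listed sequence. The high dose sum was 62.0% of control, and 1.52% of the 1512 genes with 10 to 19 windows had a sum as low. In 1.26% of those genes, 19 in number, every window was below control. The order held in the windows that had RMS above 1 in all 3 libraries: 9 of 9 were below control at the high dose, with a sum at 74.7% of control. Of 2117 genes with 5 to 9 such windows, 4.39% had every window below control and 3.78% had a sum as low. The gene's median stayed below 0 under all 3 scalings tried.

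Both Gfra1 windows past the limit were intronic. The first (chromosome 19, 58327001 to 58327500, 129 kb from the start) had RMS 2.32 in control sperm, 1.90 in low dose sperm and 0.580 in high dose sperm. Its change was -1.20 at the high dose and -0.21 at the low dose, and it passed RMS 1 in control and low dose sperm only, so a lower high dose value was required. The second (58396001 to 58396500, 59.7 kb from the start) had RMS 2.37 in control sperm, 0.489 in low dose sperm and 0.657 in high dose sperm. Here both treated libraries were low, with changes of -1.14 at the high dose and -1.32 at the low dose. The window 46.2 kb from the start had 1.84 in control sperm, 0.737 in low dose sperm and 0.664 in high dose sperm, short of the limit. Both of these windows were in the table through the control library alone, so treated values below control were required in them. The window of highest control RMS in Gfra1, 78.7 kb from the start, was intronic with RMS 4.58, 3.19 and 2.65 in control, low dose and high dose sperm. An adjoining pair of intronic windows about 67 kb from the start had RMS 4.17 and 3.66 in control sperm, 3.78 and 3.54 in low dose sperm and 2.98 and 2.59 in high dose sperm, so that both windows were lowest at the high dose. Not all of the gene shared this. An exonic window at 156 kb (exon 4, 5 or 6 by transcript) had RMS 1.47, 1.48 and 1.46, and an intronic one at 113 kb had 1.04, 0.994 and 0.967. The last 2 windows, at the final exon, also carry the symbol Gm16277 and had RMS 1.02 and 1.75 in control sperm, 0.476 and 1.04 in low dose sperm and 0.560 and 1.29 in high dose sperm.

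Ret, which encodes the signalling receptor for GDNF and its relatives, did not follow Gfra1. Of its 10 windows (ENSMUSG00000030110, chromosome 6, minus strand), 5 were below control at each dose. The gene's median change was -0.05 at the high dose and turned to 0.08 with library medians equalised, 0.14 with quantile normalization and 0.13 with the trend in RPM subtracted. The window with the highest RMS in any library, at exon 15 (118168001 to 118168500), had RMS 6.08 in control sperm, 6.40 in low dose sperm and 7.32 in high dose sperm. Exon 2, where the other strong window of the gene lies (118184001 to 118184500), had 6.23 in control sperm, 2.59 in low dose sperm and 3.94 in high dose sperm. The change there was -1.06 at the low dose, past the limit, and -0.57 at the high dose, and it is the member window of highest control RMS among the 7 that passed in any comparison. A window in exon 6 (118178001 to 118178500) had RMS 2.0, 1.35 and 0.609 in control, low dose and high dose sperm, a change of -1.01 at the high dose that lies at the limit. Its neighbour on one side, also in exon 6, had 1.81, 1.97 and 1.63. The next one, in exon 5, ran the other way, with 0.654 in control sperm, 0.870 in low dose sperm and 1.22 in high dose sperm. The exon 5 window was in the table through the high dose library alone and the lower exon 6 window through the other two, so the side of control on which high dose sperm lay was required in both.

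Kit had the most windows, 34 (ENSMUSG00000005672, chromosome 5, plus strand), from 8.26 to 80.8 kb after the start. In the high dose library 28 were below control and in the low dose library 27 were. Its mean RMS was 2.50 in control sperm, 1.97 in low dose sperm and 1.97 in high dose sperm over 17 kb. At the low dose the median of Kit was -0.30, and 1.48% of the 607 genes with 20 to 40 windows had a median as low. At the high dose it was -0.36, with 5.44% of those genes as low. Of the 34 windows, 10 were in the table through the control library alone. Over the 19 windows of Kit above RMS 1 in every library the medians were -0.17 (low dose) and -0.14 (high dose), and 7.42% and 19.98% of 916 genes with 10 to 19 such windows were as low. The high dose median was -0.23 with library medians equalised, -0.21 with quantile normalization and -0.16 with the trend subtracted.

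The strongest stretch of Kit lay about 45 kb into the gene, at exon 6 and in the intron before it. Its 3 windows start at 75620001, 75620501 and 75621001. The first, intronic, had RMS 8.40 in control sperm, 5.78 in low dose sperm and 6.04 in high dose sperm. The second, exonic, had 8.04, 6.89 and 8.01 in these libraries, and the third 3.58, 3.97 and 4.21. Signal at exon 6 was thus strong in all 3 libraries, while the intronic window was lower in both treated ones. The 1 window of Kit past the limit had a low control value: an intronic window (75633001 to 75633500, 58.3 kb from the start) with RMS 1.06 in control sperm, 0.280 in low dose sperm and 0.120 in high dose sperm, a high dose change of -1.04. Its RPM was 1.05 in control sperm, 0.256 in low dose sperm and 0.0862 in high dose sperm, and it was in the table through the control library alone. The first listed window of the gene, in an intron 8.26 kb from the start, had RMS 1.53, 0.503 and 0.400, just short of the limit at -0.98, and was also in the table through the control library alone. In the opposite direction, an intronic window at 49.3 kb had RMS 1.62 in control sperm, 3.05 in low dose sperm and 2.01 in high dose sperm. In the last exon, exon 21, 4 adjoining windows had RMS 4.28, 3.80, 1.05 and 1.69 in the control library. They had 2.71, 4.18, 0.710 and 0.874 at the low dose and 3.49, 3.41, 0.603 and 0.726 at the high dose. All 4 were below control at the high dose, as was required of the last 2, which were in the table through the control library alone.

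Zbtb16 had 29 windows (ENSMUSG00000066687, chromosome 9, minus strand) over 179 kb. In the high dose library 24 were below control, but in the low dose library only 17 were, 58.6%. Of the 29 windows, 7 were in the table through the control library alone and 7 through control and low dose sperm only. High dose values below control were required in both kinds, and below low dose values in the second. Among the 13 windows with RMS above 1 in all 3 libraries, 9 were below control at the high dose and 6 at the low dose. The medians of these 13 were -0.18 and 0.02. Over all 29 windows the median was -0.33 at the high dose and -0.12 at the low dose, and the low dose median turned to 0.06 after the trend was subtracted. This gene had the lowest median difference of the high dose from the low dose among the 6, at -0.22. Exon 2, the exon of Zbtb16 nearest to its start among the listed windows, was covered by 3 adjoining windows. The strongest of them, 4.5 kb from the start, had RMS 4.47 in control sperm, 4.88 in low dose sperm and 3.85 in high dose sperm, and all 3 were above control at the low dose and below it at the high dose, which was required of 1 of them, under RMS 1 in high dose sperm only. The window past the limit at both doses was intronic (48768001 to 48768500, 68.0 kb from the start), with RMS 3.03 in control sperm, 0.836 in low dose sperm and 1.02 in high dose sperm. Its low dose change was -1.25 and its high dose change -1.09, and it passed RMS 1 in control and high dose sperm only. The adjoining window had 1.12, 0.272 and 0.349, but it was in the table through the control library alone, so values below control were required there. Higher at the high dose were exon 5 (3.18, 3.78 and 4.59 in control, low dose and high dose sperm) and an intronic window at 32.5 kb (2.62, 2.85 and 3.53). The strongest control window, intronic at 173 kb, had 4.75, 3.58 and 4.65.

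Foxo1 had only 5 windows (ENSMUSG00000044167, chromosome 3, plus strand), and these lay on both sides of control. The intronic window nearest to the start (52293001 to 52293500, 24.9 kb) had RMS 1.80 in control sperm, 1.57 in low dose sperm and 0.425 in high dose sperm, a change of -1.11 at the high dose and -0.13 at the low dose. Another intronic window (52314501 to 52315000, 46.4 kb) had 0.555, 0.665 and 1.34 in these libraries, a change of 0.67 at the high dose. The next one, the strongest of the gene at 51.9 kb, had 2.13, 2.22 and 3.32. In each of these 3 windows the low dose value was near control and the high dose value apart from it. At 24.9 kb the window was in the table through control and low dose sperm and at 46.4 kb through high dose sperm alone, so in these the direction at the high dose was required. The intronic window at 58.9 kb had 1.61, 1.45 and 0.811, and the exon 2 window had 1.82, 1.17 and 1.19. The median of the gene was -0.40 at the high dose, the value of the exon 2 window. It was -0.05 after the trend was subtracted and 0.04 over the 2 windows with RMS above 1 in all 3 libraries.

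Sall4 (ENSMUSG00000027547, chromosome 2, minus strand) was the 1 gene of the 6 whose summed RMS was above control, at 105% of control with the low dose and 107% with the high dose. Of the 1512 genes with 10 to 19 windows, 92.3% had a high dose sum as low or lower. Its 13 windows were split, 7 below control and 6 above at each dose, and 0 passed the limit. The median was -0.11 at the high dose but 0.04 with quantile normalization, 0.02 with library medians equalised, -0.05 with the trend subtracted and 0.09 over the 8 windows with RMS above 1 in all 3 libraries. Its strongest window (168755501 to 168756000, exon 1 or 2 by transcript) had RMS 5.71, 4.62 and 6.09 in control, low dose and high dose sperm. This was the 1 member window that overlapped an annotated first exon, 11.5 kb from the RefSeq start. The window with the largest upward change (168756501 to 168757000, exon 2 or 3 by transcript) had RMS 0.428 in control sperm, 1.33 in low dose sperm and 1.48 in high dose sperm, changes of 0.81 and 0.91 for the low and high dose. It was in the table through the treated libraries and not the control library, so a control value below theirs was required. Its RPM was 0.214 in control sperm, 0.827 in low dose sperm and 0.798 in high dose sperm. With the trend in RPM and CpG content subtracted, its high dose change was 1.64. The rise comes from the median change of windows alike in both, which was below 0 and was subtracted. Windows at 17.0, 15.0 and 12.5 kb, each exonic in at least 1 transcript, were also above control in both treated libraries. Their RMS was 2.44, 1.83 and 4.27 in control sperm, 4.5, 3.14 and 5.61 in low dose sperm and 3.95, 2.94 and 5.97 in high dose sperm. At the 3′ end, the last exon and the flank had 3 adjoining windows with the reverse order, all 3 in the table through the control library alone, so that this order was required. These had RMS 1.19, 1.56 and 1.12 in control sperm, 0.658, 0.728 and 0.755 in low dose sperm and 0.452, 0.582 and 0.733 in high dose sperm.

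**Figure D3:**
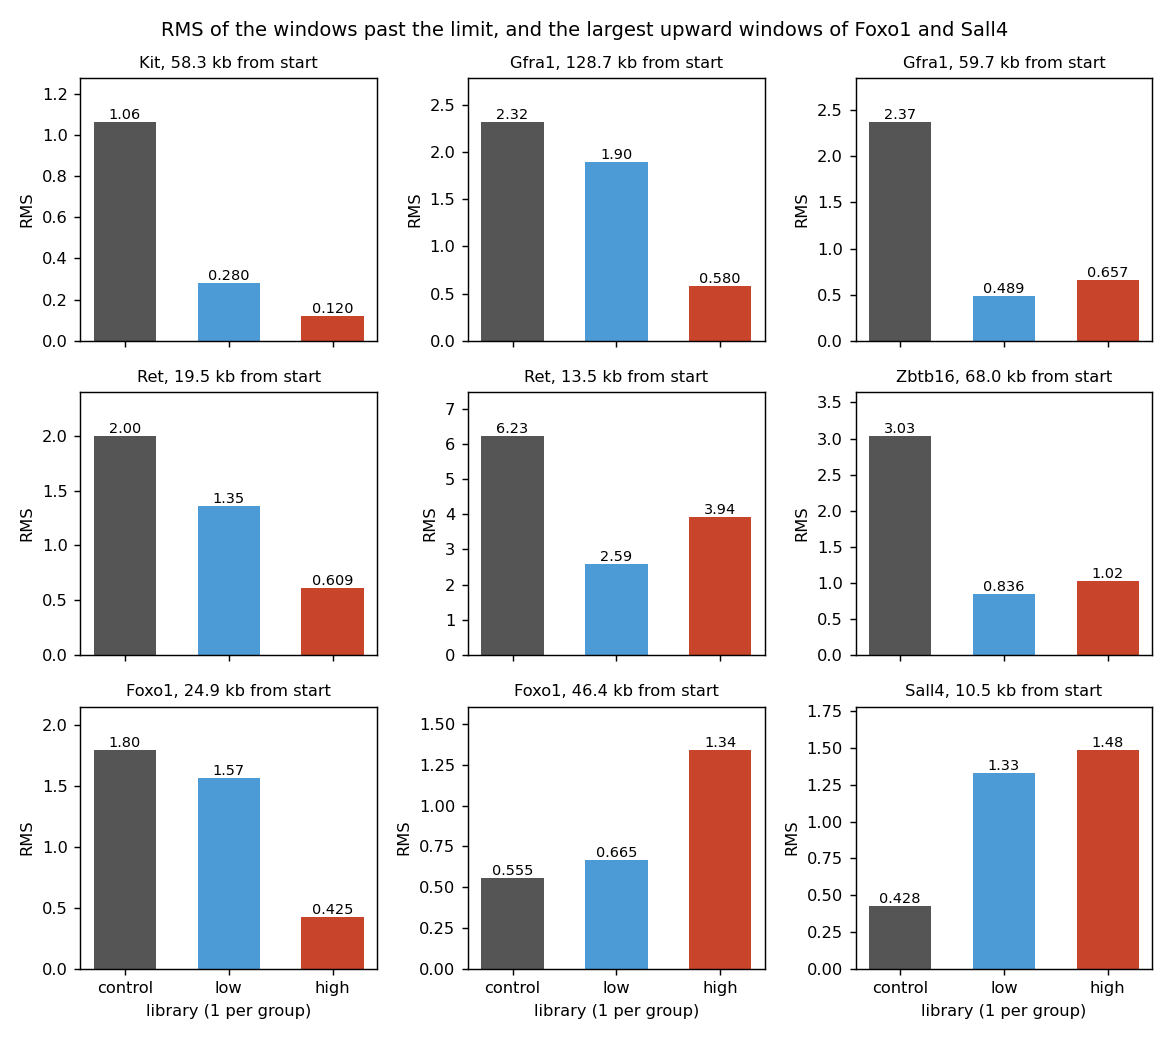
RMS (bars from 0, 1 library each) in control, low dose and high dose sperm for the 7 windows past the limit at either dose and for the largest upward windows of Foxo1 and Sall4, each titled with its distance from the RefSeq gene start. In Gfra1 at 59.7 kb and Zbtb16 at 68.0 kb both treated bars are low, whereas in Gfra1 at 129 kb and Foxo1 at 24.9 kb only the high dose bar is.

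The 68 intronic member windows had medians of -0.23 (low dose) and -0.39 (high dose), while the 40 exonic ones had -0.05 and -0.19. Over all windows of the table the medians were -0.10 and -0.17 for introns and -0.06 and -0.11 for exons, so the order was the same with a smaller gap. Of the 6 windows lower at the high dose, 5 were among the 68 intronic members and 1 among the 40 exonic ones, where 1442 of 43000 intronic and 878 of 38217 exonic windows of the whole series were lower. Read density moved with the change. Divided into 4 equal classes by mean RPM over the whole table, the members had high dose medians of -0.42, -0.46, -0.21 and -0.01 from the lowest to the highest class, and all windows had -0.39, -0.20, -0.07 and 0.08. All 6 lower windows were in the lower 2 classes, 4 of 30 (13.3%) and 2 of 31 (6.45%), against 7.82% and 1.91% of all windows in these classes. Their RPM was 0.0862 to 0.949 in the high dose library and 1.05 to 2.87 in the control library, and the median of the table was 2.42 in the control library. Across the 109 windows, which share 3 libraries, the change at the high dose and mean RPM had a Spearman correlation of 0.48, and across all windows it was 0.43. Mean RPM and the change both hold the control and high dose values, so a low high dose value lowers both. How far this shared part and the rule of entry made the relation and the placing of the 6 windows was not tested. Read numbers per window are unknown, and the part of counting noise in these windows was not tested.

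**Figure D4:**
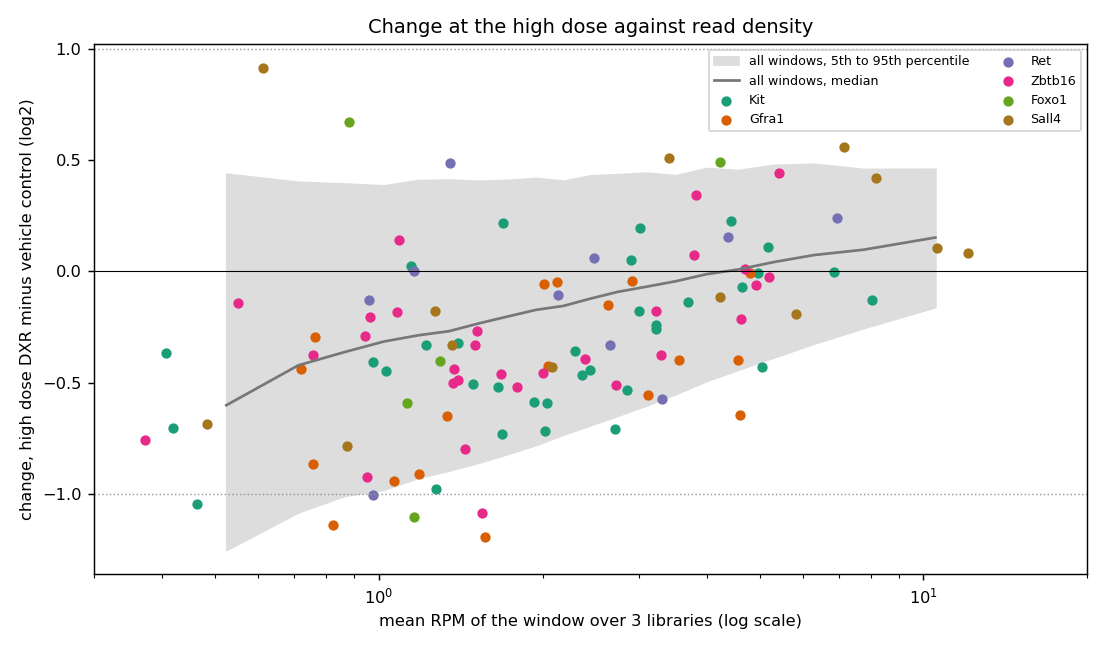
Change at the high dose from control (vertical axis, log2) against the mean RPM of the window over the 3 libraries (horizontal axis, log scale) for the windows of the 6 genes; the grey line and band are the median and the 5th to 95th percentiles of all windows in 20 bins. Most Gfra1 points lie under the median line, and the 6 points below -1 all lie under an RPM of 2.31.

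The rule by which the table was made also bears on the low windows. Of the 109 windows, 26 (23.9%) were in it through the control library alone, against 14.3% of all windows, and such windows must be below control in both treated libraries. A further 16 (14.7%) passed RMS 1 in control and low dose sperm only, against 8.04% of all windows, and must be below control at the high dose. Through the low dose library alone 1 was in the table (0.917%, against 4.15% of all windows). Through the high dose library alone it was 2 (1.83%, close to the 2.07% of all windows). Among the 6 windows lower at the high dose, 2 entered through the control library alone, and 5 had RMS under 1 in the high dose library. Among the 58 members with RMS above 1 in all 3 libraries, 0 were lower at the high dose and 1, the Ret exon 2 window, at the low dose, and their medians were -0.12 at the high dose and -0.09 at the low dose. Over all windows so chosen, 0.281% were lower at the high dose and 0.134% at the low dose, with medians of -0.01 and -0.0008. Below control at the high dose were 38 of the 58 members (65.5%), against 51.8% of all windows so chosen. The quotient of RMS and a further score, AMS, did not differ between libraries in any window and was used in place of CpG content. In 429 windows that hold a whole RefSeq promoter, its Spearman correlation with the promoter's CpG number was 0.76. The quotient ranged from 0.8 to 5.0 in the members, with a median of 2.6, equal to that of all windows, and its highest median was 3.0, in Sall4.

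Windows next to each other gave partly the same picture. Of 37 adjoining pairs among the members, 27 (73.0%) had the same sign of change at the high dose and 24 (64.9%) at the low dose. Over 46797 adjoining pairs of the table the shares were 66.2% and 63.8%. A captured fragment of about 300 bp can reach into both windows of a pair, so adjoining windows are not independent.

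Other genes of the same cells were taken from lists by role. Of 27 genes in GDNF, KIT, FGF and retinoic acid signalling, 21 were measured. Most windows annotated to Fgfr2 in the table, 204 of 223, lay outside the RefSeq range of that gene, so counts are given within RefSeq ranges. Of 167 such windows, 1 was lower at each dose and 0 were higher. The lower one was an intronic window of Grb2, an adaptor that links receptor tyrosine kinases to RAS (chromosome 11, 115674001 to 115674500), with RMS 2.09 in control sperm, 0.523 in low dose sperm and 0.444 in high dose sperm. The Grb2 window was in the table through the control library alone, so treated values below control were required. With all windows annotated to these genes, 373, 5 were lower at the high dose and 4 at the low dose. Between the doses, 3 of these 373 windows were lower in high dose than in low dose sperm, past the limit, against 0.33% of all windows. They lay in Fgf2, Gab1 and Rara. In Rara, a retinoic acid receptor gene, RMS of the window was 0.498 in control sperm, 1.5 in low dose sperm and 0.362 in high dose sperm. The Rara window passed RMS 1 in low dose sperm only, and the Fgf2 window in control and low dose sperm only. A high dose value below the low dose one was therefore required in both.

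Of 29 other genes of undifferentiated spermatogonia, 17 were measured, with 135 windows. One was lower at the high dose, at exon 3 of Sall1, a relative of Sall4, with RMS 3.30, 1.72 and 1.23 in control, low dose and high dose sperm. At the low dose 3 were lower, all intronic in Foxo3, a relative of Foxo1, and 1 was higher, at exon 16 of Cdh1, the E-cadherin gene. The Foxo3 window with the largest low dose change (chromosome 10, 42203001 to 42203500) had 2.20, 0.473 and 0.773. All 3 Foxo3 windows were in the table through the control library alone, so treated values below control were required in them. The Cdh1 window had 1.65 in control sperm, 4.11 in low dose sperm and 3.72 in high dose sperm. Of 16 genes listed for differentiating spermatogonia, 10 were measured, with 71 windows, and 0 passed the limit in either direction at either dose. This list mixes roles, with Uchl1, Ccnd3, Cdkn2a and the Dnmt3 genes among those measured. It therefore does not stand for that stage of spermatogonia. Among all windows, 2.52% were lower with the high dose and 1.24% with the low dose, which is the background for the counts of these 3 lists. High dose medians were -0.13 in the signalling genes within RefSeq ranges, -0.16 in the undifferentiated and -0.05 in the differentiating list, against -0.33 in the 6 genes and -0.10 over all windows.

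As a check of the tissue label, imprinted loci were read. The first-exon window of H19 with the strongest signal, a locus methylated in sperm, had RMS 5.58, 5.94 and 5.65 in control, low dose and high dose sperm, and its other one 1.04, 1.24 and 1.52. That of Meg3 had 3.01, 2.85 and 3.05. Of 10 loci unmethylated in sperm, 4 had any listed window, and only Peg10 had first-exon ones, with RMS of at most 1.89 in any library, above the weaker H19 window. These windows of H19, Meg3 and Peg10 overlap a first exon in some transcripts and later exons in others. The signal of these windows thus overlapped between both kinds of loci. Whether they lie in the imprinted regions themselves was not tested, so they do not decide the label.

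The scaling between libraries decided how many member windows passed the limit. Division by library medians moved the median change of all windows at the high dose from -0.10 to 0.04, and quantile normalization to 0.01. After quantile normalization 0 member windows were lower at the high dose and 2 were higher, the upward windows of Foxo1 and Sall4 already described. Over all windows that scaling left 0.693% lower and 0.485% higher. The members' median stayed below that of all windows under each scaling, at -0.19 against 0.04 with library medians equalised, -0.18 against 0.01 with quantile normalization and -0.090 against 0 after subtraction of the trend in RPM and quotient. At the low dose these scalings gave -0.10, -0.14 and -0.091 for the members, and 3 windows remained lower after quantile normalization, 1 each in Gfra1, Ret and Zbtb16.

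**Figure D5:**
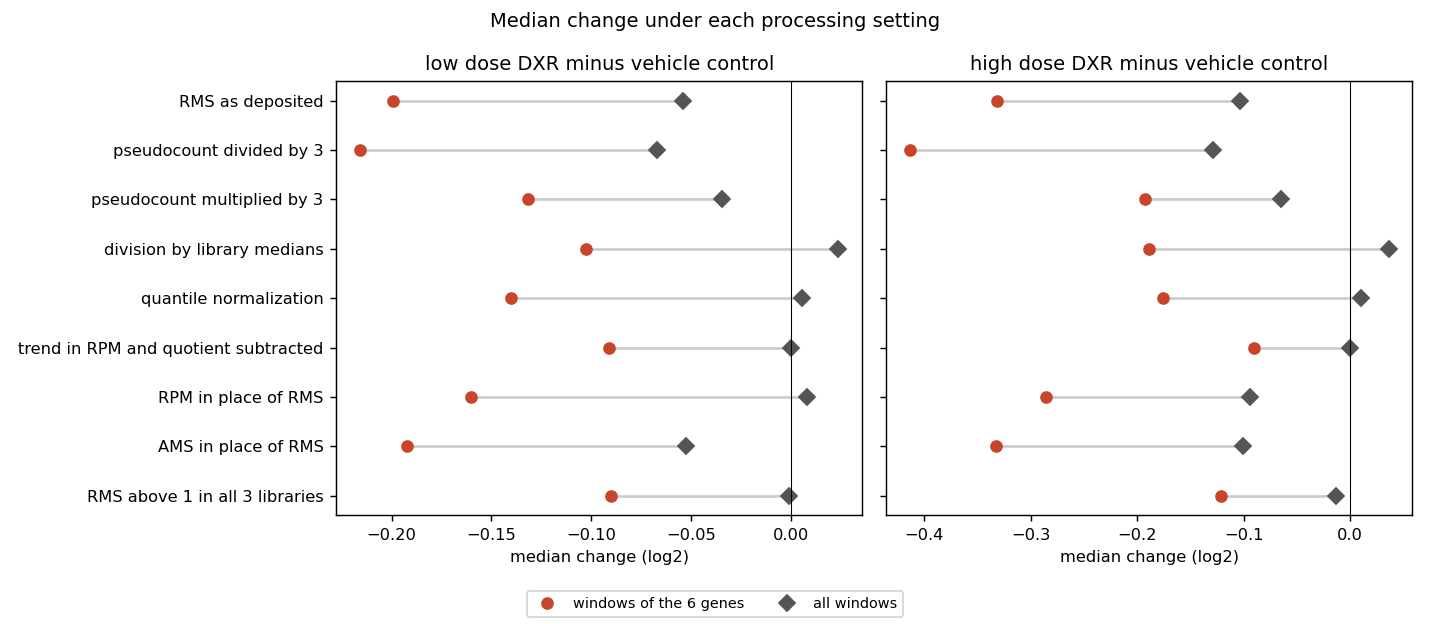
Median change (horizontal axis, log2) of the windows of the 6 genes (circles) and of all windows (diamonds) at the low dose on the left and the high dose on the right, under 9 processing settings. The circles lie to the left of the diamonds and below 0 under all 9 settings shown, from -0.41 to -0.09 at the high dose.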

How the data were processed

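Sonicated sperm DNA was enriched with MBD2 and sequenced (MiSeq), as the labels' protocols state; the submitters' processing notes name mm10. Aligner and filters: not given in the sources used here. Deposited RPM values are read densities scaled by the authors, per the file headers, and the deposited RMS and AMS scores are left undefined there. The authors' deposited ratio of low dose to control RMS differed from its 2 columns in 0 windows and was not used. Deposited RPM came in whole steps (0.0197 to 0.0216 by library; 100% within 0.05 of a step) that no header equates with reads, so depth and counting error are unknown.

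The 297037 lines held 143198 windows. The pseudocount c is the 10th percentile of RMS above 0. Alternatives were 3 scalings (library medians; quantile normalization; the median change in 20 bins of RPM by 8 of RMS/AMS subtracted), other pseudocounts, RPM or AMS, an RMS filter and a 1.5-fold limit. The calculations were tested on simulated data, with changes well past the limit put into windows of strong control signal. Changes in weak windows and the rule of entry to the table were not simulated, so calls near the limit are not covered. Named windows are those past the limit, first-exon windows, the strongest and the most changed per gene, and their neighbours; others were added after their values were seen. The members and gene lists were chosen with earlier results of these data known. Gene starts and ranges are RefSeq's (GRCm38.p6); 97.6% of exonic and intronic windows lay in the range of their symbol. Python 3.11.15, pandas 2.3.3, numpy 2.4.6 and scipy 1.17.1 were used.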

Additional observations from a re-analysis of the deposited data

How the results depend on the processing

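No paired analysis was possible because each group is 1 library, and no library could be left out. The main counts were 6 lower and 0 higher member windows at the high dose, 3 and 0 at the low dose and 0 past the limit between the doses, with medians of -0.33 and -0.20. With the pseudocount divided by 3 the high dose gave 17 lower and 1 higher windows with a median of -0.41, the low dose 9 and 1, and the comparison of doses 2. The lower ones were 15.6%, 8.26% and 1.83% of the members, against 8.5%, 4.88% and 2.47% of all windows. Higher were 0.538% of all windows at the high dose and 0.781% at the low dose. With the pseudocount multiplied by 3 there were 0 lower windows at either dose, against 0.0105% (high dose) and 0.00349% (low dose) of all windows. Division by library medians gave 3 lower (2.75%) and 1 higher at the high dose, against 1.52% and 0.233% of all windows. Quantile normalization gave 0 lower and 2 higher at the high dose with a median of -0.18, and 1 higher at the low dose. Of all windows, 0.485% were then higher at the high dose and 0.509% at the low dose. Subtraction of the trend gave the members the same counts, 0, 2 and 1, with a high dose median of -0.090. Of all windows, 0.691% were then higher at the high dose and 0.685% at the low dose. RPM in place of RMS gave 1 window past the limit between the doses, a lower one, as were 0.362% of all windows. Windows with RMS above 1 in all 3 libraries gave 0 lower at the high dose, a median of -0.12, and 1 lower at the low dose. Of all windows so chosen, 0.281% and 0.134% were lower at these doses. A 1.5-fold limit gave 24 lower and 2 higher at the high dose, 17 and 4 at the low dose and 6 between the doses. Fewer windows were used under the RMS filter, and the limit and pseudocount set their own counts; for the scalings the cause was not tested. The 181 values compared hold gene medians, which were short of the limit from the start, and values of single windows past the limit. Of the window values, 0 changed sign and 28 no longer passed the limit. At the high dose the calls held in 5 of 8 alternatives for Foxo1 and Gfra1 (58327001). They held in 4 of 8 for Kit, Zbtb16 and Gfra1 (58396001) and in 3 of 8 for Ret. At the low dose it was 7 of 8 for Gfra1 and Zbtb16 and 6 of 9 for Ret. The 1.5-fold limit, which leaves the values as they were, is counted among these alternatives. Gene medians of Ret, Zbtb16, Foxo1 and Sall4 changed sign at the low or high dose under at least 1 alternative. Those of Gfra1 and Kit did not. The high dose median of Zbtb16 moved from -0.33 to -0.11 after subtraction of the trend. Reads per window are unknown, which limits what single windows of low RPM can show.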
